A study of Macaca mulatta with 136 samples.

Results

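The genes that build the pigment organelle were followed through the neural retina and the RPE/choroid of the rhesus macaque. They were chosen by name, as the genes best known for melanin synthesis and for the melanosome, with earlier results of these data known. Each was found by the gene symbol that the deposited values carry, which gave 10 entries out of 19422. The reference table of names gave the same symbol for 9 of these identifiers and did not list that of TYRP1, which rests on the deposited symbol. They were TYR (ENSMMUG00000011115), TYRP1 (ENSMMUG00000013288), DCT (ENSMMUG00000021817), PMEL (ENSMMUG00000018816), MITF (ENSMMUG00000002100), OCA2 (ENSMMUG00000012027), SLC45A2 (ENSMMUG00000009574), SLC24A5 (ENSMMUG00000018831), GPR143 (ENSMMUG00000006192) and RAB27A (ENSMMUG00000020694). The tissue came postmortem from both eyes of 2 adult animals, called RM03 and RM04, whose ages were 13 and 18 years. From every eye a punch 2 mm across was cut at the fovea, the perimacula, the nasal retina and the temporal periphery, and neural retina was dissected from RPE/choroid, which is the pigmented epithelium together with the vascular choroid under it. RNA of the 32 resulting samples was sequenced after poly-A selection, so that each of 8 groups held 4 eyes, given below in the order RM03 right, RM03 left, RM04 right and RM04 left. Only 2 animals stand behind each group, and fellow eyes share an animal. The p-values of the main tests measure the spread left among all samples of a fit after the animal effect is removed. They do not measure the spread over animals.

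Melanin is made inside melanosomes, lysosome-related organelles that are found in the eye in both the retinal pigment epithelium and the melanocytes of the choroid, the latter of which derive from the neural crest. Tyrosinase starts the pathway from tyrosine, the related enzymes TYRP1 and DCT act on later intermediates of eumelanin, and PMEL forms the fibrils on which the pigment is laid down. Transporters set the ionic conditions inside the organelle, MITF is the transcription factor that drives the enzyme genes, and RAB27A ties the mature melanosome to the motor machinery that moves it. Loss of several of these genes causes forms of albinism, in which the fovea does not develop normally.

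Values are CPM, counts divided by a library size that was scaled with TMM factors (edgeR's trimmed mean of M values). The estimated counts of a library added up to between 42448891 and 78574034, and the members received between 600 and 532115 in RPE/choroid and between 8 and 11854 in retina. The periphery was sequenced on a flow cell of its own, so periphery and flow cell cannot be told apart. In bulk tissue, fewer cells of a type and less RNA per cell cannot be told apart either. The 6 RPE markers measured (RPE65, BEST1, LRAT, RGR, TTR and ERMN) summed to 7258 to 16883 CPM in foveal RPE/choroid and to 142 to 228 CPM in foveal retina, none being at 0. The peripheral RPE/choroid library of the RM03 left eye stood apart, with a sum of 2292 CPM against 16431, 8849.7 and 18387 CPM in the others. The 4 Schwann cell markers measured summed to 13516 CPM in that library, against a range of 138 to 163 CPM at the fovea. Of 5 melanocyte markers other than the members, which included PAX3 and EDNRB, all were present in RPE/choroid, with sums of 1523 to 1688 CPM at the fovea and 1521 to 2088 CPM at the periphery. The 9 rod markers summed to 51.1 to 539 CPM in foveal and 126 to 924 CPM in peripheral RPE/choroid, and to 4013 to 4610.1 and 23891 to 28040.3 CPM in the retina at the same locations.

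In RPE/choroid the fovea and the periphery differed in 5 of the genes: PMEL, TYRP1, SLC24A5 and RAB27A were higher at the periphery, DCT was higher at the fovea, and TYR, OCA2, SLC45A2, GPR143 and MITF did not pass the test. These 5 of 10 members were called by edgeR's quasi-likelihood test at a Benjamini-Hochberg adjusted p under 0.05, with the animal as a covariate, beside 44.1% of all 15674 genes tested. The median log2 fold change of the members was -0.11 and that of all genes -0.06, and the share of members called was near that of all genes. A positive log2 fold change means the first location named was higher. Of all genes called, 48.0% were higher at the fovea, and 33.9% when library totals alone set the scale.

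**Figure D1:**
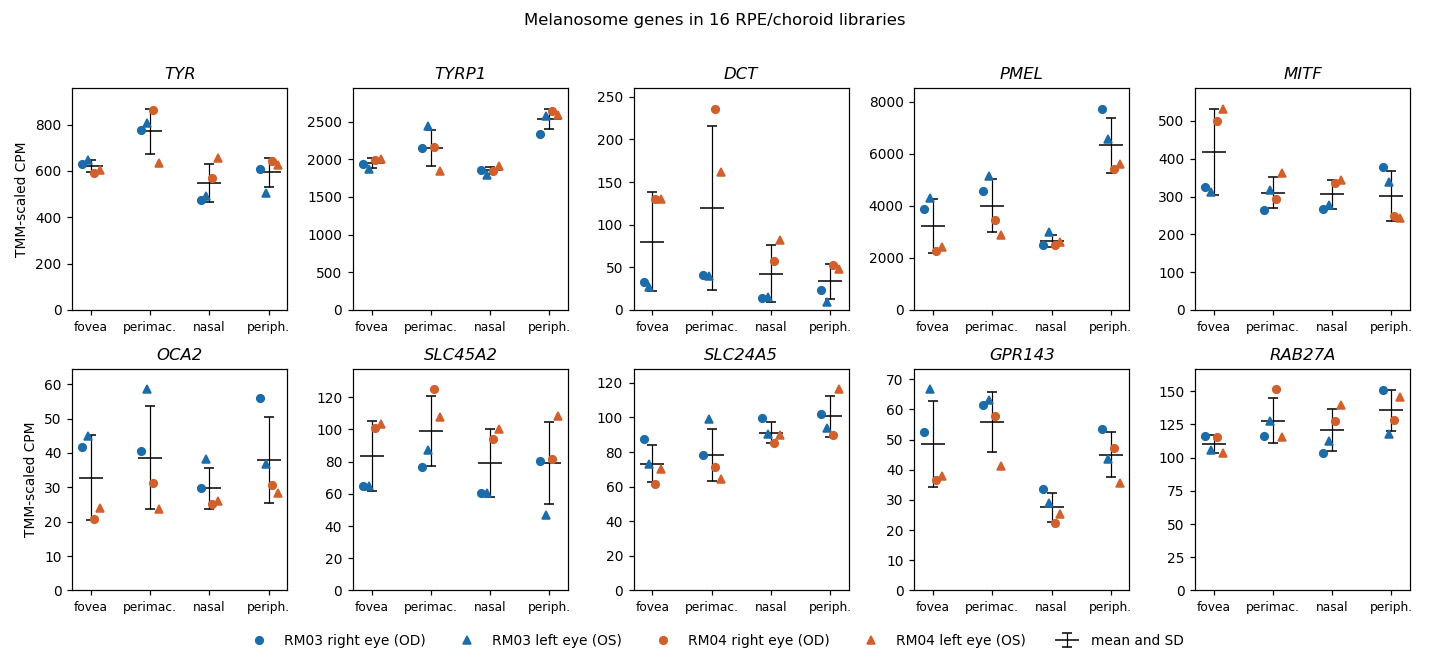
Level of each of the 10 melanosome genes in RPE/choroid, in TMM-scaled CPM on linear axes from 0, at the fovea, perimacula, nasal retina and periphery, with 1 point for each eye (blue RM03, orange RM04, circle right, triangle left) and bars for the mean and SD of 4 eyes. PMEL stood highest at the periphery in every eye, and DCT separated the animals at each location.

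PMEL, the fibril protein, showed the clearest difference between locations. Its level was 3872, 4309, 2246 and 2425 CPM at the fovea and 7734, 6555, 5428 and 5585 CPM at the periphery. The groups did not overlap, and every eye had more at the periphery, with means of 3213 ± 1031 and 6326 ± 1063 CPM (SD, n = 4). The log2 fold change was -1.03 ± 0.11 (standard error, edgeR adjusted p = 4.96e-05). The perimacula held 4551, 5133, 3455 and 2880.4 CPM and the nasal location 2489, 3004, 2503 and 2623 CPM. The nasal mean was the lowest of the 4 locations, and the foveal range overlapped both the perimacular and the nasal one.

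TYRP1, the enzyme that stabilises tyrosinase and acts late in eumelanin synthesis, varied little among eyes. It reached 1930.0, 1869, 1989 and 2004 CPM at the fovea and 2333, 2579, 2643 and 2586 CPM at the periphery, again without overlap. The difference was -0.39 ± 0.089 on the log2 scale (edgeR adjusted p = 0.00506), higher at the periphery in 4 of 4 eyes. TYR itself, which catalyses the first step, stayed close to its foveal level: 632, 649, 592 and 606 CPM at the fovea and 608, 504, 644 and 626 CPM at the periphery, where the groups overlapped (log2 fold change 0.05 ± 0.11, edgeR adjusted p = 0.74). Thus of the 2 related enzymes, TYRP1 passed the test and TYR did not, and the difference between them was not tested.

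DCT, dopachrome tautomerase, was the member called higher at the fovea. Its foveal levels were 33, 26.4, 130.3 and 129.6 CPM and its peripheral levels 23.2, 9.77, 52.8 and 47.9 CPM. The groups overlapped across animals, yet within each eye the fovea was higher (4 of 4 eyes), and the log2 fold change with the animal in the model was 1.09 ± 0.25 (edgeR adjusted p = 0.00487). Without the animal as a covariate the adjusted p was 0.222, and without the RM04 left eye it was 0.0532. The periphery library with few RPE markers had the lowest DCT level, and leaving it out gave a log2 fold change of 0.94 (edgeR adjusted p = 0.00913).

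Among the transporters, SLC24A5, a sodium-calcium exchanger of the pigment cell, was higher at the periphery. It measured 87.5, 73, 61.8 and 70.4 CPM at the fovea and 102, 93.6, 90.1 and 116 CPM at the periphery, with no overlap (log2 fold change -0.48 ± 0.13, edgeR adjusted p = 0.0129). The adjusted p was 0.0735 without the RM04 right eye and 0.0561 without the RM04 left eye. SLC45A2, a transporter that influences melanosomal pH, measured 64.6, 64.7, 101 and 103 CPM at the fovea and 80.0, 46.6, 81.6 and 109 CPM at the periphery, and its groups overlapped (log2 fold change 0.05 ± 0.15, edgeR adjusted p = 0.798). OCA2, a melanosomal membrane protein needed for its chloride conductance, measured 41.7, 45.1, 20.9 and 23.8 CPM and 56, 36.9, 30.5 and 28.5 CPM at the same locations, also overlapping (log2 fold change -0.26 ± 0.16, edgeR adjusted p = 0.211). OCA2 passed the test, at a log2 fold change of -0.40 (edgeR adjusted p = 0.036), when the periphery library with few RPE markers was left out, and likewise without the whole RM03 left eye (adjusted p = 0.0368).

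RAB27A, the small GTPase that recruits the myosin adaptor to the melanosome, was 116, 105, 116 and 103 CPM at the fovea and 151, 118, 129 and 146 CPM at the periphery. The groups did not overlap, but the difference was small, at -0.31 ± 0.11 (edgeR adjusted p = 0.0417). With the eye as a block, which pairs the samples, the adjusted p was 0.0513, and leaving out any 1 of the 4 eyes gave adjusted p-values between 0.0518 and 0.209. GPR143, the pigment-cell receptor mutated in ocular albinism, was 52.6, 66.8, 36.7 and 38.1 CPM at the fovea and 53.6, 43.5, 47.1 and 35.7 CPM at the periphery (log2 fold change 0.07 ± 0.15, edgeR adjusted p = 0.73). MITF was 326, 313, 501 and 532 CPM at the fovea and 378, 338, 249.8 and 244 CPM at the periphery (log2 fold change 0.43 ± 0.21, edgeR adjusted p = 0.117). For MITF the animals went opposite ways: both eyes of RM04 had more at the fovea and both eyes of RM03 had more at the periphery. Without the RM03 right eye the MITF adjusted p was 0.0429.

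Of the lists measured beside these members, the 6 RPE markers gave no call between fovea and periphery in RPE/choroid and had a median log2 fold change of 0.24, while all 4 Schwann cell markers were called higher at the periphery (median -4.67) and all 5 endothelial markers higher at the fovea (median 0.87). None of the 9 rod markers was called (median -2.02), whereas 4 of 5 Müller glia markers were called higher at the periphery (median -1.29). Of the 6 smooth muscle and fibroblast markers 3 were called higher at the fovea and 2 at the periphery, and of the 5 macrophage markers 1 in each direction. Of the 5 melanocyte markers, PAX3 was called higher at the fovea (0.37 ± 0.094, edgeR adjusted p = 0.00887) and S100B, which Schwann cells express too, higher at the periphery (-2.37 ± 0.34, edgeR adjusted p = 0.000283). Over all genes 44.1% were called, with 3317 higher at the fovea and 3594 at the periphery. The part of these cell types in the members' differences was not tested.

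The fovea, perimacula and nasal location shared flow cells. In RPE/choroid the main fits called few of all genes between the fovea and either of the other locations. The perimacula and the nasal location were not tested against each other. Between fovea and perimacula of RPE/choroid 0 of 10 members were called by edgeR, beside 0.0447% of all genes. DESeq2 also called 0 members, beside 2% of all genes. An edgeR fit of the compared groups alone called 0 members, beside 2.35% of all genes. An unadjusted p under 0.05 was reached by 2, namely PMEL (log2 fold change -0.33 ± 0.11) and TYR (-0.31 ± 0.11), both lower at the fovea in 4 of 4 eyes. The TYR level at the perimacula was 778, 808, 864 and 633 CPM, which overlapped the foveal range.

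Between fovea and nasal location, a comparison with the same foveal libraries, 1 of 10 members was called, beside 0.361% of all genes tested. This was GPR143, at 52.6, 66.8, 36.7 and 38.1 CPM at the fovea and 33.5, 29, 22.5 and 25.4 CPM nasally. Each eye had more at the fovea, the groups did not overlap, and the log2 fold change was 0.80 ± 0.13 (edgeR adjusted p = 0.0241). The call did not survive the loss of any single eye, with adjusted p-values from 0.115 without the RM04 right eye to 0.308 without the RM04 left eye, though the log2 fold change stayed between 0.65 and 0.88. DCT was 14.1, 15.7, 57.4 and 82.4 CPM nasally, below the fovea in 4 of 4 eyes (log2 fold change 0.95 ± 0.23), and was not called by edgeR (adjusted p = 0.103) but was by DESeq2 (adjusted p = 0.00486).

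Between nasal location and periphery, which lie on different flow cells, 3 of 10 members were called beside 44.6% of all genes. PMEL (-1.24 ± 0.13, edgeR adjusted p = 5.61e-06), GPR143 (-0.72 ± 0.13, adjusted p = 0.00056) and TYRP1 (-0.46 ± 0.077, adjusted p = 0.000261) were all higher at the periphery, in 4 of 4 eyes and without overlap. This comparison shares its peripheral libraries with the one between fovea and periphery, so the pair are not independent. The GPR143 levels in RPE/choroid therefore formed a dip at the nasal location, with means of 48.5 ± 14.2 CPM at the fovea, 56 ± 9.94 at the perimacula, 27.6 ± 4.76 nasally and 45 ± 7.47 at the periphery (SD, n = 4). The levels at the fovea, perimacula and periphery overlapped one another.

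The animals differed in several members of RPE/choroid at every location, as the plot of the ratio between animals shows. DCT was higher in both RM04 eyes than in both RM03 eyes at 4 of 4 locations, by a ratio of means from 3.05 at the periphery to 4.93 at the perimacula. SLC45A2 was likewise higher in RM04 at 4 of 4 locations, by 1.42 to 1.6 times. OCA2 went the other way and was higher in RM03 at 4 of 4 locations, by 1.33 to 1.94 times. PMEL was higher in both RM03 eyes at 3 of 4 locations, the nasal one excepted, and GPR143 at 3 of 4, the periphery excepted. TYRP1 stayed within 0.874 to 1.06 times. RPE65, the isomerase of the visual cycle and a marker of the epithelium, was 1.63 to 2.39 times higher in RM04 in the ratio of means. Both RM04 eyes lay above both RM03 eyes for it at 3 of 4 locations, the periphery excepted, where the RM03 left library had 482 CPM and the RM03 right library 4390.4 CPM, between the RM04 values. No test was made of these differences, since each animal is a single one.

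**Figure D2:**
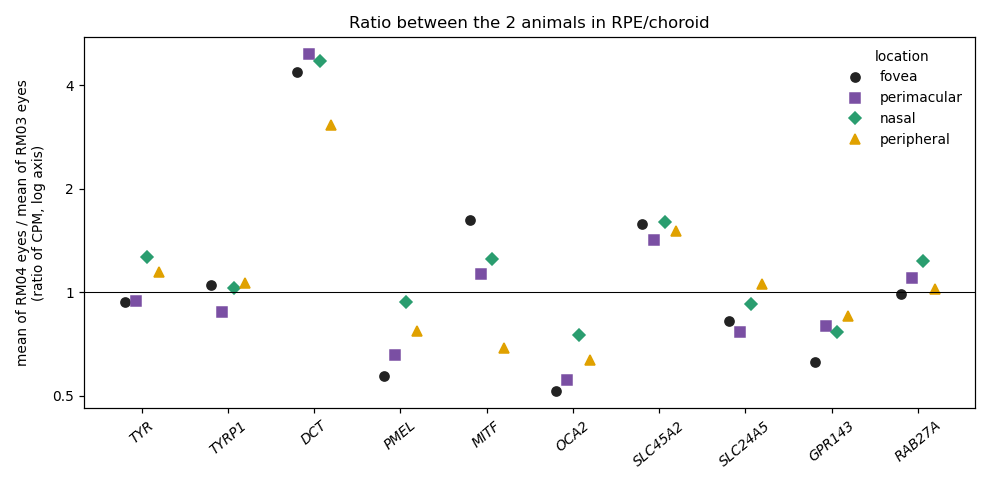
Ratio of the mean CPM of the 2 RM04 eyes to that of the 2 RM03 eyes in RPE/choroid, on a log axis, for each melanosome gene and with a symbol for each of 4 locations; the line marks equal levels. DCT lay between 3.05 and 4.93 at all 4 locations, and OCA2 lay under 1 at all 4.

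In retina the direction between animals was not the same. OCA2 was higher in both RM04 eyes of the retina at 4 of 4 locations, by 1.58 to 2.86 times, which is opposite to RPE/choroid. SLC45A2 was higher in RM04 in both tissues, by 2.17 to 3.61 times in retina. DCT in retina was higher in RM03 by 1.31 to 1.97 times in the ratio of means, at levels under 1 CPM.

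All 10 members were higher in RPE/choroid than in retina at each location, and no eye overlapped between the tissues for any member at any location. The share of all genes without such overlap was not counted. Every member was called by edgeR at the fovea, where 38.4% of all genes were called and higher in RPE/choroid. The corresponding shares of all genes were 39.0% (perimacula), 38.6% (nasal) and 37.9% (periphery), against 10 of 10 members each time. At the fovea the log2 fold change ran from 3.41 ± 0.21 for MITF (edgeR adjusted p = 3.11e-14) to 9.59 ± 0.34 for TYR (adjusted p = 4.71e-19). The members therefore differed widely in how far their retinal level lay below that of the pigmented tissue.

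**Figure D3:**
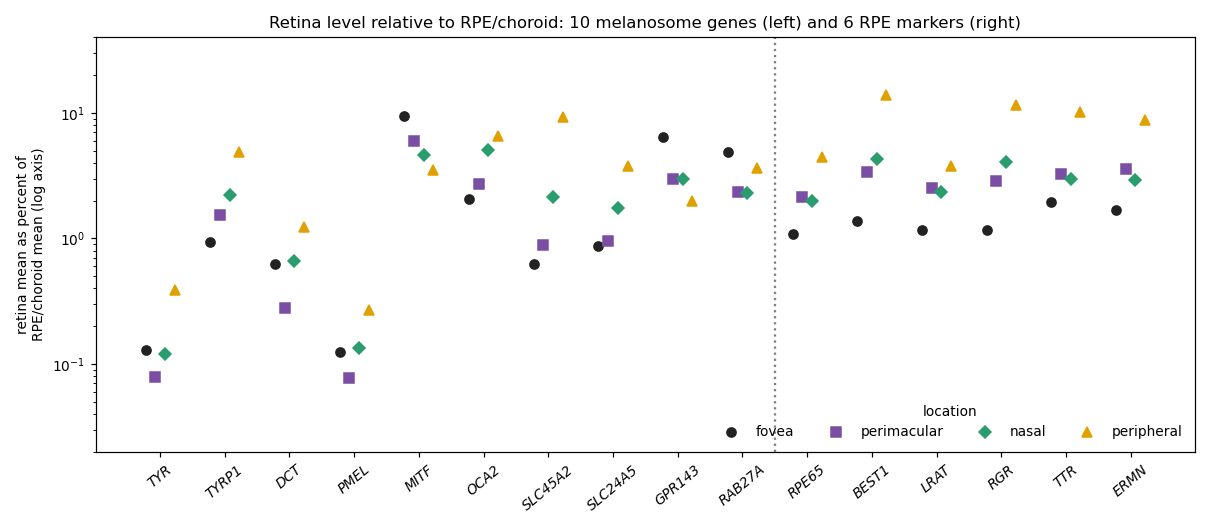
Mean retinal CPM as a percent of mean RPE/choroid CPM (log axis) for the 10 melanosome genes, left of the dotted line, and for 6 RPE markers, right of it, at 4 locations. TYR and PMEL lay under 1% at all 4 locations, while MITF went from 9.38% at the fovea to 3.5% at the periphery.

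The retinal level as a percent of the RPE/choroid level compares each gene with itself and needs no gene length. At the fovea it was 0.13% for TYR, 0.125% for PMEL, 0.622% for DCT and 0.624% for SLC45A2. TYRP1 (0.94%) and SLC24A5 (0.868%) lay just under the RPE markers and OCA2 (2.05%) just over them. The markers ran from 1.09% for RPE65 to 1.97% for TTR. RAB27A (4.83%), GPR143 (6.44%) and MITF (9.38%) were above all 6 RPE markers. At the periphery this order was not kept: TYRP1 reached 4.91%, SLC45A2 9.23% and OCA2 6.58%, while GPR143 was at 1.99%. The RPE markers at the periphery ran from 3.75% for LRAT to 13.9% for BEST1, but their peripheral RPE/choroid mean includes the library with few RPE markers.

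Within the retina 8 of 10 members were called between fovea and periphery, beside 67.0% of all 15380 genes. The list split by direction. SLC45A2, TYRP1, SLC24A5, PMEL, OCA2 and TYR (6 members) were higher at the periphery, GPR143 and MITF were higher at the fovea, and DCT and RAB27A did not pass. The median log2 fold change was -1.71 for the members and -0.06 for all genes.

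**Figure D4:**
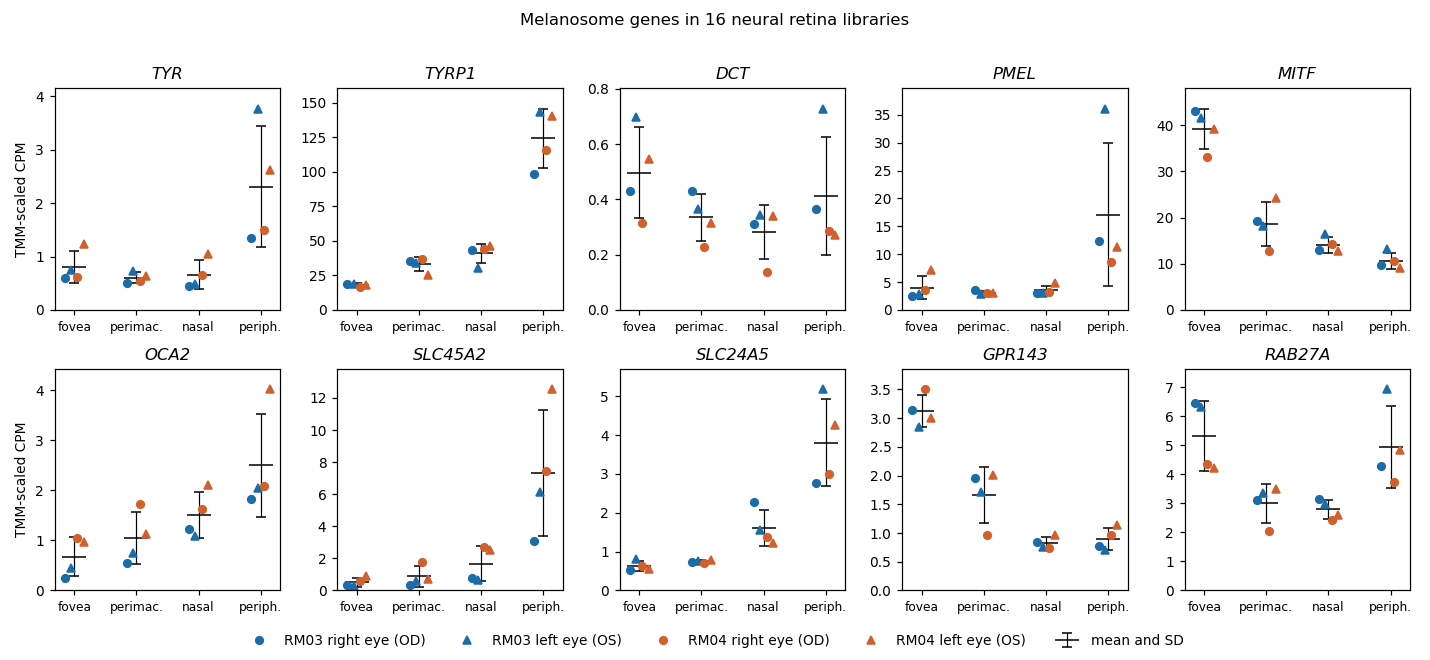
Level of each of the 10 melanosome genes in neural retina, in TMM-scaled CPM on linear axes from 0, drawn as for RPE/choroid with 1 point per eye and the mean and SD of 4 eyes. TYRP1 was lowest at the fovea and highest at the periphery in every eye, and MITF and GPR143 were highest at the fovea in every eye.

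TYRP1 differed between locations in a graded way. It was 19.1, 19.1, 16.7 and 18.4 CPM at the fovea, 35.5, 34, 36.7 and 25.5 CPM at the perimacula, 43.2, 30.7, 43.8 and 46.4 CPM nasally and 98.3, 143, 116 and 140.2 CPM at the periphery. The perimacular and nasal ranges overlapped, while the fovea lay below and the periphery above both. The log2 fold change between fovea and periphery was -2.71 ± 0.15 (edgeR adjusted p = 7.09e-08). TYR was 0.595, 0.748, 0.626 and 1.24 CPM at the fovea and 1.34, 3.77, 1.5 and 2.61 CPM at the periphery (-1.47 ± 0.36, edgeR adjusted p = 0.00322), and its perimacular mean of 0.604 and nasal mean of 0.66 CPM overlapped the fovea. DCT stayed between 0.136 and 0.728 CPM in every retinal library, with a log2 fold change of 0.38 ± 0.30 (edgeR adjusted p = 0.286).

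PMEL in retina was 2.52, 2.82, 3.59 and 7.14 CPM at the fovea and 12.3, 36.1, 8.63 and 11.3 CPM at the periphery, where the RM03 left eye was above the other eyes (-1.98 ± 0.47, edgeR adjusted p = 0.00274). SLC45A2 had the widest difference, from 0.328, 0.278, 0.593 and 0.878 CPM at the fovea to 3.09, 6.15, 7.46 and 12.6 CPM at the periphery (-3.79 ± 0.35, edgeR adjusted p = 1.67e-06). Each eye changed in the same direction for both genes. SLC24A5 went from 0.533, 0.818, 0.626 and 0.564 CPM to 2.78, 5.19, 3.0 and 4.27 CPM (-2.53 ± 0.24, edgeR adjusted p = 1.91e-06). OCA2 went from 0.246, 0.453, 1.04 and 0.961 CPM to 1.82, 2.05, 2.09 and 4.02 CPM (-1.95 ± 0.28, edgeR adjusted p = 7.42e-05). For neither did the groups overlap.

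The RPE markers moved the same way in the retina. Their sum was 142 to 228 CPM at the fovea, 129.6 to 251 at the perimacula, 237 to 442 nasally and 552 to 1206 at the periphery, and 5 of the 6 were called higher at the periphery, with a median log2 fold change of -2.48. No RPE marker was at 0 in any of these groups, and their part in the members' retinal levels was not tested. Markers of other cells called higher at the retinal periphery were 9 of 9 for rods, 5 of 5 for Müller glia, 5 of 5 for macrophages, 4 of 6 for smooth muscle and fibroblasts (1 was higher at the fovea), 3 of 5 for endothelium and 3 of 5 on the melanocyte list, and their part was not tested either. Over all 15380 genes 67.0% were called, with 5542 higher at the periphery and 4770 at the fovea. The melanocyte list was not particular to RPE/choroid: TRPM1 was 70.4 to 128.8 CPM and S100B 11.1 to 57.8 CPM over the retinal libraries. PAX3 and CDH19 reached at most 0.613 and 0.464 CPM there.

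MITF and GPR143 went against that direction. MITF was 43, 41.6, 33.1 and 39 CPM at the fovea, 19.2, 18.1, 12.7 and 24.2 CPM at the perimacula, 12.9, 16.4, 14.3 and 12.7 CPM nasally and 9.72, 13.1, 10.5 and 9.01 CPM at the periphery, so the fovea lay above every other group in every eye (1.94 ± 0.18, edgeR adjusted p = 2.03e-06). GPR143 was 3.14, 2.85, 3.51 and 3.0 CPM at the fovea, 1.96, 1.71, 0.966 and 2.01 CPM at the perimacula, 0.841, 0.748, 0.747 and 0.971 CPM nasally and 0.779, 0.699, 0.959 and 1.15 CPM at the periphery (1.86 ± 0.24, edgeR adjusted p = 3.08e-05). Its nasal and peripheral levels overlapped. RAB27A was 6.44, 6.3, 4.35 and 4.23 CPM at the fovea and 4.28, 6.93, 3.73 and 4.82 CPM at the periphery, with overlap (0.15 ± 0.20, edgeR adjusted p = 0.526), and lower between them, at 3.11, 3.36, 2.03 and 3.5 CPM at the perimacula and 3.16, 2.98, 2.41 and 2.6 CPM nasally.

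On shared flow cells, and with the same foveal libraries as above, the retinal fovea and nasal location gave 8 of 10 members called, beside 52.2% of all genes. GPR143 (1.95 ± 0.22, edgeR adjusted p = 4.4e-06), MITF (1.51 ± 0.16, adjusted p = 2.67e-06), RAB27A (0.96 ± 0.17, adjusted p = 0.000284) and DCT (0.86 ± 0.32, adjusted p = 0.0332) were higher at the fovea. SLC45A2 (-1.56 ± 0.33, adjusted p = 0.000971), SLC24A5 (-1.28 ± 0.23, adjusted p = 0.000273), OCA2 (-1.21 ± 0.26, adjusted p = 0.00138) and TYRP1 (-1.12 ± 0.15, adjusted p = 2.01e-05) were lower there. TYR (0.33 ± 0.36) and PMEL (0.22 ± 0.41) did not pass the test. The DCT call was lost without the RM03 right eye (edgeR adjusted p = 0.0595), the RM03 left eye (0.11) or the RM04 right eye (0.0903). With no covariate the adjusted p was 0.0897 for DCT and 0.056 for OCA2. All 6 RPE markers were called lower at the fovea than nasally in retina (median -0.98).

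Whether the difference between fovea and periphery itself differed between the tissues was tested as an interaction in a fit of all 32 libraries, where 7 of 10 members were called beside 43.5% of 16382 genes. A positive value means that RPE/choroid had the more positive log2 fold change of fovea over periphery. SLC45A2 (3.86 ± 0.40, edgeR adjusted p = 2.72e-08), TYRP1 (2.38 ± 0.18, adjusted p = 1.43e-10), SLC24A5 (2.10 ± 0.24, adjusted p = 1.41e-07), OCA2 (1.66 ± 0.54, adjusted p = 0.0153) and TYR (1.59 ± 0.35, adjusted p = 0.000695) were positive. GPR143 (-1.69 ± 0.28, adjusted p = 2.19e-05) and MITF (-1.43 ± 0.27, adjusted p = 0.00011) were negative. PMEL, higher at the periphery in both tissues, did not pass (1.00 ± 0.47, edgeR adjusted p = 0.0889), nor did DCT (0.95 ± 0.81, adjusted p = 0.37) or RAB27A (-0.40 ± 0.24, adjusted p = 0.173). Without the RM03 left eye the OCA2 adjusted p was 0.103 and without the RM04 left eye 0.0647, and PMEL passed without the RM04 left eye (adjusted p = 0.0142). That fit has 1 animal effect for both tissues, although DCT and OCA2 differed between the animals in opposite directions in the tissues. With an animal effect in each tissue the same 7 members were called, and DCT was 0.77 ± 0.39 (edgeR adjusted p = 0.106), PMEL 1.07 ± 0.46 (adjusted p = 0.0591) and OCA2 1.71 ± 0.30 (adjusted p = 4.64e-05). All 6 RPE markers were called with positive values in the first of these fits (median 2.36), and their part in the members' differences was not tested.

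**Figure D5:**
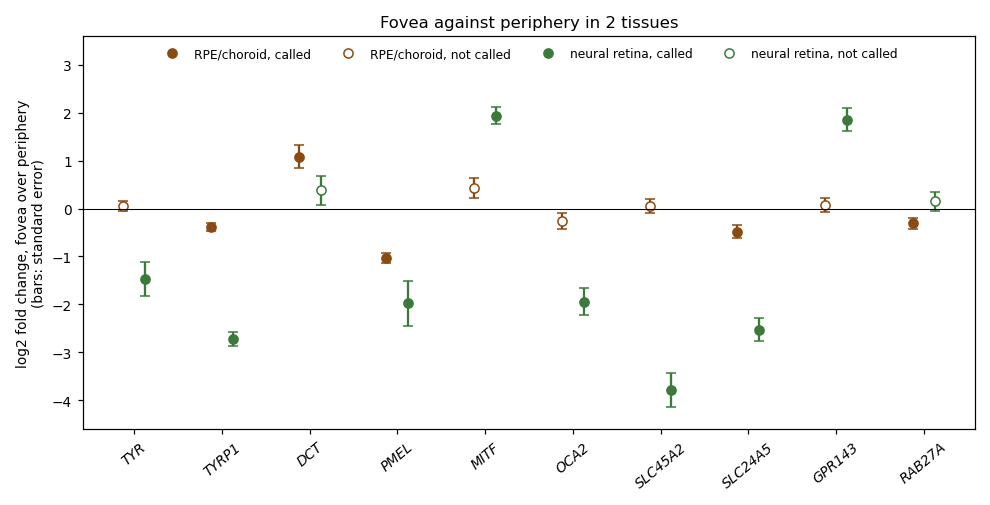
Log2 fold change of fovea over periphery for each melanosome gene in RPE/choroid (brown) and neural retina (green), with bars for the standard error; filled points were called by edgeR at an adjusted p under 0.05 and open points were not. The retinal values ran from -3.79 to 1.94 and those of RPE/choroid from -1.03 to 1.09.

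The melanosome depends on further genes, which were counted on lists by role. Of 20 genes measured of the sorting complexes that deliver cargo to the melanosome (BLOC-1, BLOC-2, BLOC-3, AP-3 and related Rab proteins), 7 were called higher at the periphery of RPE/choroid and 2 higher at the fovea (median log2 fold change -0.07, against -0.06 for all genes), a share near the 44.1% of all genes called. BLOC1S6, a BLOC-1 subunit, was 12.8 ± 3.1 CPM at the fovea and 31.8 ± 10.4 CPM at the periphery (-1.29 ± 0.12, edgeR adjusted p = 1.74e-05). AP3S1 (-1.12 ± 0.089, adjusted p = 7.43e-06), a subunit of the AP-3 adaptor, and DTNBP1 (-0.53 ± 0.15, adjusted p = 0.0161), another BLOC-1 subunit, were also higher at the periphery. AP3D1 (0.54 ± 0.10, adjusted p = 0.00164), another AP-3 subunit, and RAB7A (0.75 ± 0.11, adjusted p = 0.000242), the late endosomal GTPase, were higher at the fovea. The DTNBP1 call was lost without the RM03 right eye (edgeR adjusted p = 0.0548) and with no covariate (0.0989). Thus subunits of the same adaptor were called in opposite directions. In retina 8 of these genes were called higher at the fovea and 7 at the periphery, beside 67.0% of all genes.

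Of the melanosome movement list, 10 genes with 11 entries, 2 entries were called higher at the periphery of RPE/choroid and 1 higher at the fovea (median -0.20), which is a smaller share than the 44.1% of all genes called. DYNLL1, a dynein light chain, was 118 ± 20.9 CPM at the fovea and 187 ± 66.8 CPM at the periphery (-0.65 ± 0.13, edgeR adjusted p = 0.00245). The other calls were 2 entries that both carry the symbol RAB1A and went opposite ways (-0.44 ± 0.08, adjusted p = 0.00126, and 0.63 ± 0.11, adjusted p = 0.000968), so which of them stands for RAB1A is uncertain. In retina 6 entries were called higher at the fovea and 4 at the periphery, beside 67.0% of all genes.

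Of 14 genes measured on the list of other melanosome proteins and transporters, 4 were called higher at the periphery of RPE/choroid and none higher at the fovea (median -0.16). This was again a smaller share than the 44.1% of all genes. FMO1 had the largest fold, from 1.68 ± 0.485 to 8.22 ± 2.54 CPM (-2.36 ± 0.29, edgeR adjusted p = 0.000111). FMO1 was also the one gene of the 4 lists called between fovea and nasal location. Whether its product belongs to the melanosome was not examined, so its difference is not read as one of the melanosome. BACE2, a protease that cleaves PMEL, went from 69.4 ± 6.92 to 114 ± 8.14 CPM (-0.73 ± 0.071, adjusted p = 2.39e-05), and CD63, a tetraspanin that takes part in sorting PMEL, from 505 ± 39.5 to 725 ± 101 CPM (-0.53 ± 0.11, adjusted p = 0.00332). All 3 are named because their folds were among the largest negative ones of the list. In retina 7 genes of this list were called higher at the periphery and 3 at the fovea, beside 67.0% of all genes called.

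Of 17 pigment cell regulators and receptors measured, 7 were called higher at the fovea of RPE/choroid and 4 higher at the periphery (median 0.14), beside the same 44.1% of all genes. LEF1, a transcription factor of Wnt signalling, went from 50.9 ± 19.7 CPM at the fovea to 15 ± 3.9 CPM at the periphery (1.70 ± 0.19, edgeR adjusted p = 4.93e-05). EDNRA (1.34 ± 0.18, adjusted p = 0.000152), an endothelin receptor that smooth muscle also expresses, and TBX2 (1.26 ± 0.16, adjusted p = 0.000116) were higher at the fovea too. PAX6 (-1.96 ± 0.46, adjusted p = 0.00593), KITLG (-0.99 ± 0.26, adjusted p = 0.0112), the ligand of the KIT receptor, and TFEC (-0.82 ± 0.21, adjusted p = 0.00954), a relative of MITF, were higher at the periphery. Without the RM04 left eye the edgeR adjusted p was 0.0543 for PAX6, 0.0673 for KITLG and 0.0738 for TFEC, and PAX6 was also lost without the RM03 right eye (0.0512) and TFEC without the RM04 right eye (0.0628). In retina 6 genes of this list were called higher at the fovea and 4 at the periphery, beside 67.0% of all genes.

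The genes whose RPE/choroid levels followed the mean of the members most closely were ST3GAL4 (Pearson r = 0.91), MLPH (0.90), LIPC (0.89), ZFYVE1 (0.83) and GALNT18 (0.83). The correlation is over 16 libraries, of log2 CPM with the mean of the 10 members' centred log2 CPM, among genes whose mean log2 CPM was 3 or more, and the libraries share animals, eyes and flow cells. MLPH encodes melanophilin, the adaptor that joins RAB27A to myosin, and was 548 ± 31.4 CPM at the fovea, 709.5 ± 95.5 at the perimacula, 472 ± 39.2 nasally and 623 ± 97.7 at the periphery. The members themselves were not alike: TYR (0.87), SLC45A2 (0.67) and DCT (0.62) followed their common mean, whereas OCA2 (0.18), MITF (0.12) and SLC24A5 (-0.16) did so weakly or not at all. Each member is itself part of that mean, so its r is partly built in. DCT varied most and so weighed most in that mean. RPE65 had r = 0.03, and EDNRB and TRPM1 of the melanocyte list had r = 0.78 and 0.73. The other RPE and melanocyte markers are not given, so these values do not stand for their lists. RPE65 itself ran from 482 to 8596 CPM over the RPE/choroid libraries, lowest in the peripheral one of the RM03 left eye. The source of the likeness was not tested.

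In the peripheral library of the RM03 left eye, whose RPE65 level was 482 CPM against 4390.4, 2591 and 6068 CPM in the other peripheral eyes, the members were not lowered together. PMEL (6555 CPM), TYRP1 (2579), MITF (338), OCA2 (36.9), SLC24A5 (93.6) and GPR143 (43.5) lay within the range of the other 3 eyes. TYR (504), RAB27A (118), SLC45A2 (46.6) and DCT (9.77) were the lowest of the 4. Without this library 6 of 10 members were called between fovea and periphery of RPE/choroid, beside 44.0% of all genes. With it 5 of 10 were called, beside 44.1% of all genes.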

How the data were processed

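The authors assigned poly-A selected, paired-end reads of 100 bp to transcripts of Mmul_8.0.1 with Salmon (version 0.13 in the submitters' processing notes) and summarised them to genes with tximport. The deposited column is headed TPM, but its values add up to between 7933344 and 39445657 in each of 136 lanes, so they were read as estimated counts; the study's methods name length-scaled TPM from tximport, a quantity on the scale of counts, for its heatmaps only, so that this reading rests on the totals. The study's own tests used DESeq2 with the animal as a covariate.

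The lanes of each of 32 libraries were summed and rounded to whole counts, and 10 repeated identifiers with identical values were dropped. edgeR 4.0.16 (quasi-likelihood, TMM, filterByExpr at a minimum count of 10, limma 3.58.1, R 4.3.3) was fitted with the animal as a covariate, and p-values were adjusted over all genes tested by Benjamini-Hochberg. The fovea, perimacula and periphery of a tissue were fitted together, the nasal location was added for comparisons with it, and all 8 groups were fitted for differences between tissues. Scripts were tested on simulated data. Python 3.11.15 with numpy 2.4.6, pandas 2.3.3 and matplotlib 3.10.9 was used for the rest.

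The same replicate number marks the same eye in every group, so the samples are paired. Deviations from the group means correlated by a median of 0.37 between samples of the same eye, 0.38 between fellow eyes and -0.38 between animals in RPE/choroid, and 0.51, 0.47 and -0.47 in retina. The deviations within a group cancel out, so the negative values between animals are largely built in by subtracting the mean. Samples of the same eye were about as alike as those of fellow eyes, so the pairing rests on the labels.

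The members and lists were chosen with earlier results of these data known. Named are the 10 members, from each list the called genes with up to 3 largest positive and 3 largest negative log2 fold changes between fovea and periphery of RPE/choroid, 5 genes most like the members, and marker lists as sums. PAX3, S100B, RPE65, EDNRB, CDH19 and TRPM1 were named after their values were seen. BLOC1S5, RAB32, MLANA, SOX10, MC1R, ASIP, KIT, RDH5, SLC16A8 and NCMAP were not analysed here. The alternatives were DESeq2 1.42.0, RLE factors, library totals, no or a stricter filter, no covariate, a block for the eye, a fit of the compared groups alone, a prior count of 0.25, and leaving out each eye. Leaving out the peripheral RPE/choroid library of the RM03 left eye and fitting an animal effect in each tissue were chosen after seeing the data.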

Additional observations from a re-analysis of the deposited data

Results flagged for a closer look

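In 80 groups of 4 eyes (10 genes, 2 tissues, 4 locations), 1 eye stood far from the other 3 on the log2 scale in 2 groups, where chance flags about 1 in 20 groups. Both were in nasal retina. TYRP1 was 43.2, 30.7, 43.8 and 46.4 CPM, with the RM03 left eye lowest at 30.7 CPM. DCT was 0.309, 0.342, 0.136 and 0.338 CPM, with the RM04 right eye lowest at 0.136 CPM, which is 8 estimated counts.

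The difference between fovea and periphery was itself different between RPE/choroid and retina for 7 members, by the interaction in edgeR. The log2 values were 3.86 for SLC45A2, 2.38 for TYRP1, 2.10 for SLC24A5, 1.66 for OCA2, 1.59 for TYR, -1.43 for MITF and -1.69 for GPR143, with RPE/choroid minus retina as the sign. Of these, TYR, SLC45A2 and OCA2 were not called in RPE/choroid between fovea and periphery, and neither were MITF and GPR143. The RPE marker sum in retina went from 169.5 CPM at the fovea to 961 CPM at the periphery, and its part in the 5 positive differences was not tested.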

How the results depend on the processing

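Of the log2 fold changes of single genes recomputed under the alternatives, 1451 kept their direction and side of the threshold, 32 were no longer called, 10 became called and 22 changed sign, and the causes were not tested. The number of members called between fovea and periphery of RPE/choroid was 3 with no covariate and ran from 2 to 5 when each eye was left out and was 6 without the peripheral library of the RM03 left eye, against 5. Of all genes, 33.8% were called with no covariate, 30.1% to 38.4% without an eye and 44.0% without that library, against 44.1%. Between fovea and nasal location the number of members was 2 by DESeq2, 0 with no covariate and 0 without any 1 eye, against 1. The calls over all genes there were 490 by DESeq2, 4 with no covariate and 0 to 10 without 1 eye, against 57. Between nasal location and periphery the number of members was 5 with library totals only, against 3, beside 45.7% and 44.6% of all genes. With the eye as a replicate block the RAB27A adjusted p in edgeR was 0.0513, and the block changed no other call of a member. Library totals moved the median of all genes from -0.06 to -0.19 between fovea and periphery of RPE/choroid, from -0.04 to -0.21 between nasal location and periphery and from 0.07 to -0.06 in the interaction. The share of calls that were higher went from 48.9% to 30.1% between nasal location and periphery, from 56.2% to 45.6% in the interaction, from 42.9% to 25% of under 10 calls between fovea and perimacula and from 57.9% to 73.5% between fovea and nasal location. Signs changed for values not called. Between fovea and periphery of RPE/choroid with library totals only, TYR was -0.079, SLC45A2 -0.076 and GPR143 -0.059, and leaving out an eye, or the peripheral library of the RM03 left eye alone, gave -0.049 to 0.10, -0.080 to 0.22 and -0.12 to 0.22. Between nasal location and periphery, DCT was -0.028 with library totals only and MITF 0.0087 with no covariate, and the same removals gave -0.089 to 0.52 for DCT, -0.17 to 0.17 for MITF and -0.15 to 0.12 for SLC45A2. They gave -0.017 to 0.38 for PMEL between fovea and nasal retina, -0.021 to 0.20 for OCA2 between fovea and nasal RPE/choroid and -0.16 to 0.045 for SLC24A5 between fovea and perimacula. The 5 genes most like the members were the same 5 with a prior count of 0.25. Depth limits DCT in retina most, with as few as 8 estimated counts.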

Other observations

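Among the fovea, perimacula and nasal location of RPE/choroid, which shared flow cells, 8 of the 10 members had their highest mean at the perimacula. The share of all genes that did so was not counted. The exceptions were MITF, highest at the fovea, and SLC24A5, highest at the nasal location. TYR had means of 619.7 CPM at the fovea, 771 at the perimacula and 547 nasally, and DCT 79.8, 119.7 and 42.4 CPM. Of the 5 melanocyte markers all had their highest mean of the 3 locations at the perimacula. EDNRB had 1135 ± 61.9, 1521 ± 260.4 and 1028 ± 124 CPM (SD, n = 4) at the fovea, perimacula and nasal location, while CDH19 was lowest at the fovea, with 91.5 ± 16.2, 114 ± 23.1 and 103 ± 11.8 CPM. The sum of the RPE markers was lowest at the perimacula in each eye, with means of 12779, 7737 and 13574 CPM in the same order, and between fovea and nasal location the animals differed, RM03 being higher nasally and RM04 at the fovea. No member was called between fovea and perimacula, the 10 genes were read in the same libraries and do not count as separate evidence, and the Schwann cell markers summed to 8208 and 2147 CPM in 2 of the 4 perimacular libraries against 155 and 185 in the others.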
